A study of Ictalurus punctatus with 14 samples.

Results

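gad2 (gene ID 108272908) and astn1 (gene ID 108267173) are 2 neuronal genes of channel catfish, *Ictalurus punctatus*, picked by their gene IDs out of the 23231 genes of the count table. Both were named by the study as hub genes of a co-expression module built from these same libraries, so their difference from the 2 dpf stage is not independent support for that module. RNA was sequenced from whole embryos or larvae at 7 stages between 2 and 10 days post fertilization (dpf), namely 2 dpf and then daily from 5 to 10 dpf, with 2 libraries per stage and 14 in all. Each library was made from a pool of several whole fish of the Kansas random strain, of unknown sex, and fish collected together were divided randomly between the replicate pools. The stages differed in age and not by an experimental treatment, although feeding of the swim-up fry began at 7 dpf, within the later days compared here, so that feeding and age cannot be told apart there. Unspecified treatments during incubation were stopped before the expected hatch, and embryos of 2 dpf were still within the chorion. Neither can be told apart from age between 2 and 5 dpf. Ribosomal RNA was depleted before library construction. The comparisons followed both genes through development, from one sampled stage to the next and along the days from 5 to 10 dpf, and set the genes against each other.

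gad2 encodes a glutamate decarboxylase, the enzyme that makes the inhibitory transmitter GABA from glutamate. In the vertebrate brain GABA is made in the endings of inhibitory neurons, packed into vesicles by a transporter encoded by slc32a1, released onto GABA receptors of the next cell and taken up again by transporters of neurons and glia. In mammals, glutamate decarboxylase is also made in the islets of the pancreas. astn1 encodes astrotactin 1, a membrane protein of young neurons that, in mouse, binds the migrating neuron to the glial fiber along which it moves. In RefSeq, gad2 has 1 annotated transcript and astn1 has 5, and no other gene overlaps the span of either. Gene symbols follow RefSeq (Coco_2.0 assembly), in which the other glutamate decarboxylase genes are gad1a, gad1b and gad3. Reads shared among these related genes could have been divided differently, so their separate values are uncertain to that extent. The second astrotactin gene, astn2, was not matched by symbol.

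Total counts lay between 4349807 and 16097718 per library. Levels are given as CPM, counts scaled to a common library size after TMM normalization, which corrects for library size and composition but not for gene length, so levels were compared between stages and not between genes. A total of 3 counts corresponded to 0.186 to 0.690 CPM, depending on the library. The 6 libraries of 5, 7 and 9 dpf held 4349807 to 6755272 counts, fewer than the 7944619 to 16097718 of the 6 libraries of 6, 8 and 10 dpf. Each neighboring comparison from 5 dpf on therefore crossed this division. The libraries of 2 dpf held 10708575 and 10906305 counts, against 4349807 and 5885954 at 5 dpf. Depth and stage thus cannot be told apart in any neighboring comparison, including that of 5 with 2 dpf. The correlation of replicates across genes on log2 CPM was 0.983 to 0.989 from 2 to 8 dpf, but 0.962 for 9 dpf and 0.931 for 10 dpf. Replicate 2 of 10 dpf stood apart in its neuronal genes. The sum of 22 pan-neuronal genes that passed the low-count filter and 1 that did not was 1732 CPM there against 1009 CPM in replicate 1, and all 22 were higher in replicate 2. The tests of gad2 and astn1 and the list numbers and medians that rest on 10 dpf are given with and without this library. Other values that rest on 10 dpf, among them the closest genes and the shares of the neuronal sum, include it.

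The level of gad2 was low at 2 dpf and many times higher at every later stage. The counts at 2 dpf were 29 and 17, or 3.08 and 1.77 CPM in replicates 1 and 2. At 5 dpf the replicates had 22.1 and 24.9 CPM. They had 28.7 and 28.6 CPM on the next day (6 dpf), 27.9 and 28.2 CPM at 7 dpf, and 23.6 and 22.9 CPM at 8 dpf. At 9 dpf they were 35.7 and 32.5 CPM, and at 10 dpf 38.2 and 79.1 CPM, from 408 and 715 counts. The 12 libraries of 5 to 10 dpf did not overlap with the libraries of 2 dpf, and the lowest of them was 7.17 times the highest library of 2 dpf. The share of all genes separated from 2 dpf in this way was not counted. From 6 to 8 dpf the replicates lay close together, and at 10 dpf they lay 2.07-fold apart. The stage means, with SD over n = 2, were 2.43 ± 0.924 CPM at 2 dpf, 23.5 ± 1.96 CPM at 5 dpf and 58.7 ± 28.9 CPM at 10 dpf. The mean of 5 to 10 dpf was 13.5 times that of 2 dpf.

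astn1 was likewise low at 2 dpf, with 33 and 20 counts or 3.5 and 2.09 CPM. At 5 dpf its replicates had 41.7 and 39.1 CPM, followed by 49.7 and 52.6 CPM at 6 dpf. They had 45.6 and 43.2 CPM on the next day (7 dpf), and 43.2 and 49.2 CPM at 8 dpf. They were 56.1 and 49.7 CPM at 9 dpf and 57.4 and 113 CPM at 10 dpf, from 612 and 1021 counts. As for gad2, no later library overlapped with 2 dpf, and the lowest later library was 11.2 times the highest of 2 dpf. The later stages lay close to one another except for replicate 2 of 10 dpf, which was 1.97 times replicate 1. The stage means, again with SD over n = 2, were 2.80 ± 1.0 CPM at 2 dpf, 40.4 ± 1.82 CPM at 5 dpf and 85.2 ± 39.3 CPM at 10 dpf. The mean of 5 to 10 dpf was 19.1 times that of 2 dpf. Both genes were detected at 2 dpf above the level of 3 counts in each library. Both were lower in replicate 2 than in replicate 1 there, but the exact 95% Poisson intervals overlapped for gad2 (2.06 to 4.42 against 1.03 to 2.84 CPM) and for astn1 (2.41 to 4.92 against 1.27 to 3.22 CPM). These intervals cover counting error only, and may understate it, because PCR copies of a molecule could not be recognized. Their overlap is not a test of the difference between the pools. At 2 dpf, 95.6% of the genes tested had a higher ratio of replicate 2 to replicate 1 than gad2, and 95.4% a higher one than astn1.

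**Figure D1:**
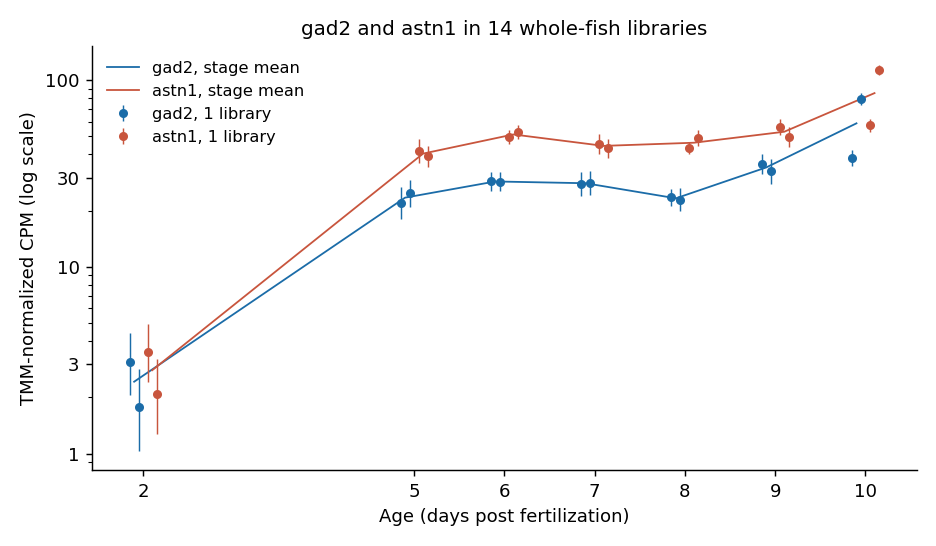
TMM-normalized CPM of gad2 (blue) and astn1 (red) on a log axis against age in days post fertilization; each point is 1 library with its exact 95% Poisson interval, and lines join the means of the 2 libraries of a stage. Every later library lay above both libraries of 2 dpf, with gad2 at 22.1 to 79.1 CPM and astn1 at 39.1 to 113 CPM, and the replicates of 10 dpf lay apart. The heights of the 2 genes are not comparable, because CPM is not corrected for gene length.

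When the stages were ordered by mean, gad2 ran from 2 dpf through 8, 5, 7, 6 and 9 dpf to 10 dpf. Only the neighbors 8 and 5 dpf overlapped between their replicates. astn1 ran from 2 dpf through 5, 7, 8, 6 and 9 dpf to 10 dpf, and the replicates of 7 and 8 dpf and of 6 and 9 dpf overlapped. Thus 2 dpf was lowest and 10 dpf highest by mean for both genes, and the means of the stages between them were ordered differently. These orders describe means of 2 libraries and were not tested. The share of all genes without overlap between such stages was not counted. Stages without overlap could lie close, with gad2 means of 28.0 CPM at 7 dpf and 28.7 CPM at 6 dpf.

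Differential expression was tested with edgeR's quasi-likelihood test over 20329 genes, and genes counted as DEGs if their Benjamini-Hochberg adjusted p was under 0.05 and they differed by at least 1 on the log2 scale. Between 5 and 2 dpf, both genes were upregulated DEGs, gad2 by 3.27 (SE 0.35, adjusted p = 1.09e-05) and astn1 by 3.85 (SE 0.33, adjusted p = 2.14e-06) on the log2 scale. These changes corresponded to 9.66-fold and 14.4-fold. In this comparison 33.2% of all genes tested were DEGs, 21.3% upregulated and 11.9% downregulated, and the median log2 fold change of all genes was 0.02. Without TMM that median was 0.23, and the changes were 3.48 for gad2 and 4.06 for astn1. Because whole fish were sequenced, more cells of a type and more RNA per cell cannot be told apart in these and the following results.

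Neither gene was a DEG in any of the 5 later neighboring comparisons. The log2 fold changes of gad2 were 0.28 (SE 0.28) between 6 and 5 dpf, −0.03 (SE 0.27) between 7 and 6 dpf, −0.27 (SE 0.27) between 8 and 7 dpf and 0.55 (SE 0.27) between 9 and 8 dpf. Those of astn1 were 0.34 (SE 0.26), −0.20 (SE 0.26), 0.05 (SE 0.26) and 0.20 (SE 0.26) in the same order. In the fit of all 14 libraries, the edgeR adjusted p-values of these 8 tests lay between 0.352 and 0.961. In these comparisons 9.9%, 2.61%, 2.24% and 0.738% of all genes were DEGs. With only the libraries of 5 and 6 dpf fitted, gad2 differed by 0.29 (edgeR adjusted p = 0.0481) and astn1 by 0.36 (edgeR adjusted p = 0.00441). Both changes were under the fold threshold, so neither gene was a DEG. Such a fit of each other later comparison gave both genes an edgeR adjusted p above 0.05. Between 10 and 9 dpf, where 1.29% were DEGs, gad2 differed by 0.78 (SE 0.27, edgeR adjusted p = 0.128) and astn1 by 0.68 (SE 0.26, edgeR adjusted p = 0.151). That comparison depended on which 10 dpf library was used. Without replicate 2 the differences were 0.20 and 0.15 (edgeR adjusted p = 0.658 and 0.759), and without replicate 1 they were 1.21 and 1.09, at which both genes were DEGs (edgeR adjusted p = 0.000236 and 0.000446).

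The change along the days from 5 to 10 dpf was taken as the linear trend over the 6 stage means, expressed as the fitted log2 change over these days. gad2 gained 1.01 (SE 0.23, edgeR adjusted p = 0.00348), or 2.01-fold, just past the fold threshold. astn1 had a fitted change of 0.80 (SE 0.22, edgeR adjusted p = 0.00949), or 1.74-fold, which passed the test on p but not the threshold on fold, so it was not a DEG. Across all genes 24% were DEGs of this trend, 14.6% rising and 9.39% falling, and the median change was 0.02. Without replicate 2 of 10 dpf, the trend was 0.62 for gad2 (edgeR adjusted p = 0.00265) and 0.44 for astn1 (edgeR adjusted p = 0.0172), both under the fold threshold, and without replicate 1 of 8 dpf that of gad2 was just under it. Within the 6 libraries of 5, 7 and 9 dpf the trend was 0.70 for gad2 and 0.52 for astn1 (edgeR adjusted p = 0.0167 and 0.0405). Within the 6 libraries of 6, 8 and 10 dpf it was 1.41 and 1.04 (edgeR adjusted p = 0.0583 and 0.115), and with the odd or even day as a term it was 1.10 and 0.79 (edgeR adjusted p = 0.0159 and 0.0278). The trend was positive for both genes in all of these subsets, while the threshold was passed or missed with the libraries used.

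**Figure D2:**
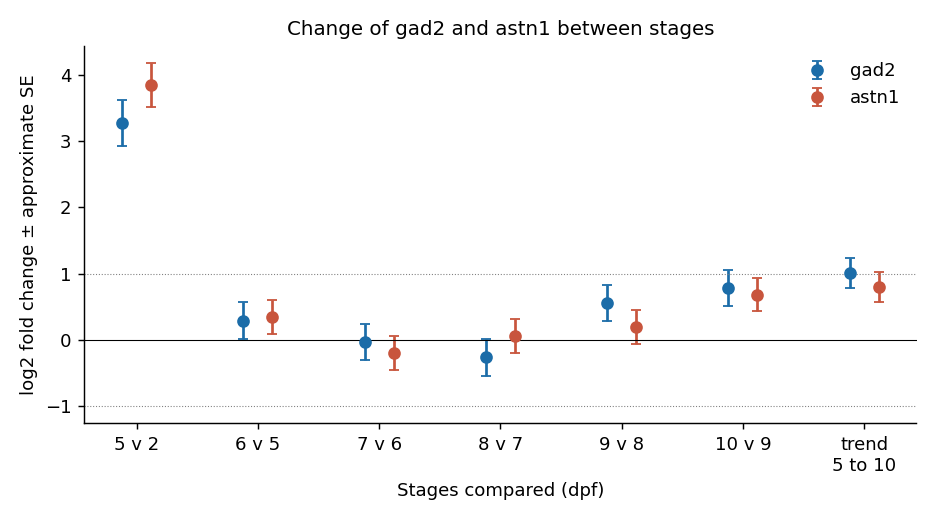
Log2 fold change of gad2 (blue) and astn1 (red) in the 6 neighboring comparisons and in the fitted trend from 5 to 10 dpf; points are edgeR estimates, bars the approximate standard error, and dotted lines the fold threshold for a DEG. The step from 2 to 5 dpf (3.27 and 3.85) stood above all later steps, of which the largest were 0.78 and 0.68. That step spans more days than the later steps of 1 day each, so these heights do not compare rates of change.

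The balance between the genes was compared through the ratio of gad2 to astn1 counts within a library, in which library size cancels. The ratio was 0.881 and 0.854 in the replicates of 2 dpf and lay between 0.467 and 0.700 in the later libraries. The stage mean of the log2 ratio was −0.21 for 2 dpf, and for the 6 later stages in order of age it was −0.78, −0.83, −0.66, −0.98, −0.63 and −0.55. Both libraries of 2 dpf thus lay above all 12 later libraries, and the mean difference was −0.54. In a 2-sided exact permutation test, p was 0.0110, the smallest value that the 91 placements allow. Libraries of the same stage entered this test as separate points. With either library of 2 dpf left out, the smallest possible p was 0.0769, above 0.05. The low counts of 2 dpf limited the precision. gad2 made up 46 of the 99 counts of both genes there, 46.5% with an exact Clopper-Pearson 95% interval of 36.4 to 56.8%, and this interval includes the 37.9% of the later libraries pooled (36.8 to 38.9%). Among single libraries from 5 to 10 dpf, the share of gad2 ranged from 31.8% in replicate 2 of 8 dpf to 41.2% in replicate 2 of 10 dpf.

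**Figure D3:**
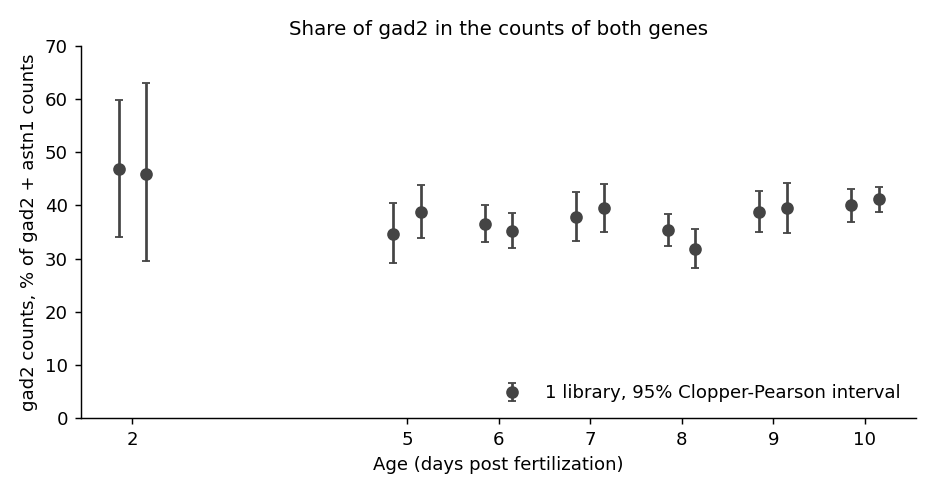
gad2 counts as a percentage of the gad2 and astn1 counts together against age in days post fertilization; each point is 1 library and each bar its exact 95% Clopper-Pearson interval. Both libraries of 2 dpf lay highest, with wide intervals from 37 to 62 counts, and the later libraries lay between 31.8% and 41.2%.

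Over the 12 libraries from 5 to 10 dpf, log2 CPM of the genes moved together, with a Pearson r of 0.950 (permutation p = 0.00019) and a Spearman rho of 0.867 (permutation p = 0.00054). This was the only relation tested between samples, and libraries of the same stage entered as separate points. Without the 2 libraries farthest from the median of gad2, which were those of 10 dpf, r was 0.693 (permutation p = 0.0274). Within the libraries of 5, 7 and 9 dpf r was 0.902 (exact permutation p = 0.0167), and within those of 6, 8 and 10 dpf it was 0.975 (exact permutation p = 0.00833). Leaving out replicate 2 of 10 dpf gave an r of 0.778. The relation therefore held in each subset and was weaker without 10 dpf.

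The genes whose log2 CPM followed gad2 most closely over all 14 libraries were LOC108277464 (r = 0.995), the calcium pump gene atp2b3b, the zinc finger gene znf536, the netrin receptor gene unc5db and the glutamate receptor delta subunit gene grid1b (r = 0.994 each). For astn1 they were LOC108267341 and LOC108276674 (r = 0.996 each), tmem200a (r = 0.995), grid1b and znf536 (r = 0.994 each), so that grid1b and znf536 stood in both groups of 5. gad2 and astn1 had an r of 0.991 with each other, which placed astn1 at rank 14 for gad2 and gad2 at rank 13 for astn1 among 19664 genes with a mean of at least 1 CPM. With 2 of the 14 points far below the others, many genes reached high values, and 1771 genes had an r above 0.9 with gad2 and 1805 with astn1. Over the 12 later libraries alone these numbers were 230 and 271. The closest genes to gad2 were then mapk8ip3 (r = 0.977), the NMDA receptor subunit genes grin2bb (r = 0.976) and grin2ab (r = 0.975), the kainate receptor subunit gene grik5 (r = 0.974) and si:dkeyp-9d4.3 (r = 0.973). Those closest to astn1 were als2b (r = 0.979), the phosphatase gene ppm1e (r = 0.978), LOC108256612, srcin1a and rapgef4a (r = 0.973 each). These correlations are descriptions over libraries that share stages and depth, and replicate 2 of 10 dpf was the highest library for both genes.

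Among the genes that make, pack and remove GABA, 8 of the 10 tested beside gad2 were upregulated between 5 and 2 dpf and none downregulated. Of all genes 21.3% were upregulated. The median log2 fold change was 2.50, against 0.02 for all genes. Of the other decarboxylase genes, gad1b went from 3.29 and 4.28 CPM at 2 dpf to between 23.7 and 63.8 CPM later (log2 fold change 2.72), and gad1a from 3.5 and 2.82 CPM to between 10.0 and 23.4 CPM (2.07). gad3 changed least of the 4 decarboxylase genes, with a log2 fold change of 1.19. The vesicular transporter gene slc32a1, which loads GABA into synaptic vesicles, had a mean of 10.6 CPM at 2 dpf and 29.6 to 61.8 CPM later (2.27). The GABA uptake transporter genes rose most, slc6a1a by 4.74, slc6a1b by 4.58, slc6a11b by 3.88 and slc6a13 by 3.31 on the log2 scale. slc6a1a had only 0.531 and 0.313 CPM at 2 dpf, near the level of 3 counts, so the size of its change is uncertain. The genes of GABA breakdown were not DEGs. abat, the GABA transaminase gene, had a log2 fold change of −0.74 (edgeR adjusted p = 0.00157, short of the fold threshold), and aldh5a1, the gene for the enzyme of the next step, had 0.39 (edgeR adjusted p = 0.0770).

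Along the days from 5 to 10 dpf, 2 of these 10 genes rose past the threshold beside gad2, gad3 by 1.07 and slc6a1a by 1.02, near the 14.6% of all genes that did so, and the median was 0.24. gad1b had a fitted change of 0.98, near that of gad2, while gad1a had 0.22 and slc32a1 0.04. The uptake genes slc6a1b, slc6a11b and slc6a13 had 0.27, 0.03 and less than 0.01. Without replicate 2 of 10 dpf, 1 of the 10 genes, gad3, was past the threshold and the median was 0.08.

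On the receiving side of the synapse, 18 of 28 genes of GABA receptors and the inhibitory postsynapse were upregulated between 5 and 2 dpf and none downregulated, with a median of 2.71. Among all genes 21.3% were upregulated there, and 14.6% rose along the later days. gabra4, which encodes a GABA-A receptor alpha subunit, had only 2 counts in both libraries of 2 dpf together, and its pooled rate was 38.4 times higher at 5 dpf (exact counting interval 9.99 to 327). arhgef9b, which encodes collybistin, a protein of the inhibitory postsynapse, was not a DEG (0.28). Along the later days 11 of the 28 rose and none fell, with a median of 0.99, close to the value of gad2, but without replicate 2 of 10 dpf the number was 5 and the median 0.78. If at least 10 counts were required in each library, which removes genes that are near 0 at 2 dpf, only 9 members were tested. Of these 9, 7 were upregulated between 5 and 2 dpf and 4 rose along the later days.

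Few transcription factor genes that specify inhibitory neurons were DEGs between these stages. Of 27 tested, 3 were upregulated between 5 and 2 dpf and none downregulated, with a median of 0.35. The share upregulated was below the 21.3% of all genes. Along the later days 9.39% of all genes fell. The 3 were lhx1a (log2 fold change 1.94), sox14 (2.73) and dlx2b (1.68), and the abundant blood and neuron factor tal1 had −0.82, short of the threshold. Along the later days gata2a rose by 1.44 and 6 genes fell (dlx2a, ascl1b, gsx2, lhx1b, gata2b and lbx1b), with a median of −0.46. Without replicate 2 of 10 dpf none rose and 6 fell, with a median of −0.59. The number that fell was 4 with DESeq2, RLE, no TMM, no filter or only the libraries of the comparison. With at least 10 counts required in each library, 1 of 16 tested fell. Without TMM, 5 members were DEGs between 5 and 2 dpf.

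Of 21 tested genes of neuron migration beside astn1, 12 were upregulated between 5 and 2 dpf and none downregulated, against 21.3% of all genes upregulated. The median log2 fold change was 1.18 against 3.85 for astn1. The adhesion molecule genes l1camb and l1cama had changes of 1.69 and 2.79. ntrk2b, which encodes a receptor for the growth factor BDNF, went from a mean of 0.371 CPM to between 3.23 and 19.7 CPM (4.06), and cdk5r1b, which encodes an activator of the kinase Cdk5, from 3.27 CPM to between 24.2 and 53.4 CPM (3.86). These 2 genes alone in the list had a larger change than astn1. Genes of the reelin pathway changed less, with 0.93 for reln itself and 0.88 for its receptor gene vldlr, both under the fold threshold, and 1.29 for the adaptor gene dab1a. cdh2, which encodes the adhesion molecule N-cadherin, had −0.46 and was not a DEG. Along the later days 2 of the 21 rose, ntrk2b by 1.04 and its paralog ntrk2a by 1.03, and none fell, a smaller share than the 14.6% of all genes that rose, with a median of 0.45. Without replicate 2 of 10 dpf none passed the threshold and the median was 0.01.

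The general neuronal genes were higher at 5 than at 2 dpf as a group. Among all genes 21.3% were upregulated between these stages, and 14.6% rose along the later days. In a short list, a number near these shares is not a result about its cell type. Of 22 tested pan-neuronal genes 21 were upregulated (median 2.58), among them the synaptic gene snap25a (3.45) and the growth cone gene gap43 (1.92). The exception was elavl3, an RNA-binding protein gene of young neurons, at −0.25. The group sum was 166 and 201 CPM at 2 dpf and 781 to 1732 CPM later. The CPM of gad2 was 1.28% of this sum at 2 dpf (mean of both libraries on the log scale), 2.7% at 5 dpf, 2.55% to 3.53% from 6 to 9 dpf and 4.16% at 10 dpf. That of astn1 was 1.48% of the sum at 2 dpf, 4.65% at 5 dpf, 5.05% to 5.74% from 6 to 9 dpf and 6.09% at 10 dpf. Both genes were thus higher relative to the neuronal sum at every later stage than at 2 dpf. Genes listed for excitatory neurons, which do not make GABA, also moved, 17 of 19 upward with a median of 3.24. Their vesicular glutamate transporter genes slc17a6b (3.47) and slc17a6a (4.38) had changes as large as those of gad2 or larger. slc17a7b rested on 1 count at 2 dpf, and its pooled rate at 5 dpf was 25.6 times higher (exact counting interval 3.89 to 1082), while the NMDA receptor subunit gene grin1b had a change of 3.82. Of 8 genes in the glycinergic list, 3 were upregulated (median 1.23), the receptor genes glra1 (4.12) and glra2 (1.61) and the neuronal glycine transporter gene slc6a5 (2.73), while slc6a9, the glial one, had −0.04. Receptor genes in the excitatory and glycinergic lists belong to receiving cells and do not mark the neurons that release the transmitter. Along the later days 7 pan-neuronal, 10 excitatory and 3 glycinergic genes (glra3, glrba and glrbb) rose and none fell, with medians of 0.54, 1.02 and 0.18. Without replicate 2 of 10 dpf the numbers were 5, 5 and 0 and the medians 0.26, 0.81 and 0.02. With at least 10 counts required in each library, only 7 excitatory genes were tested. All 7 were upregulated between 5 and 2 dpf, and 1 of the 7 rose along the later days.

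**Figure D4:**
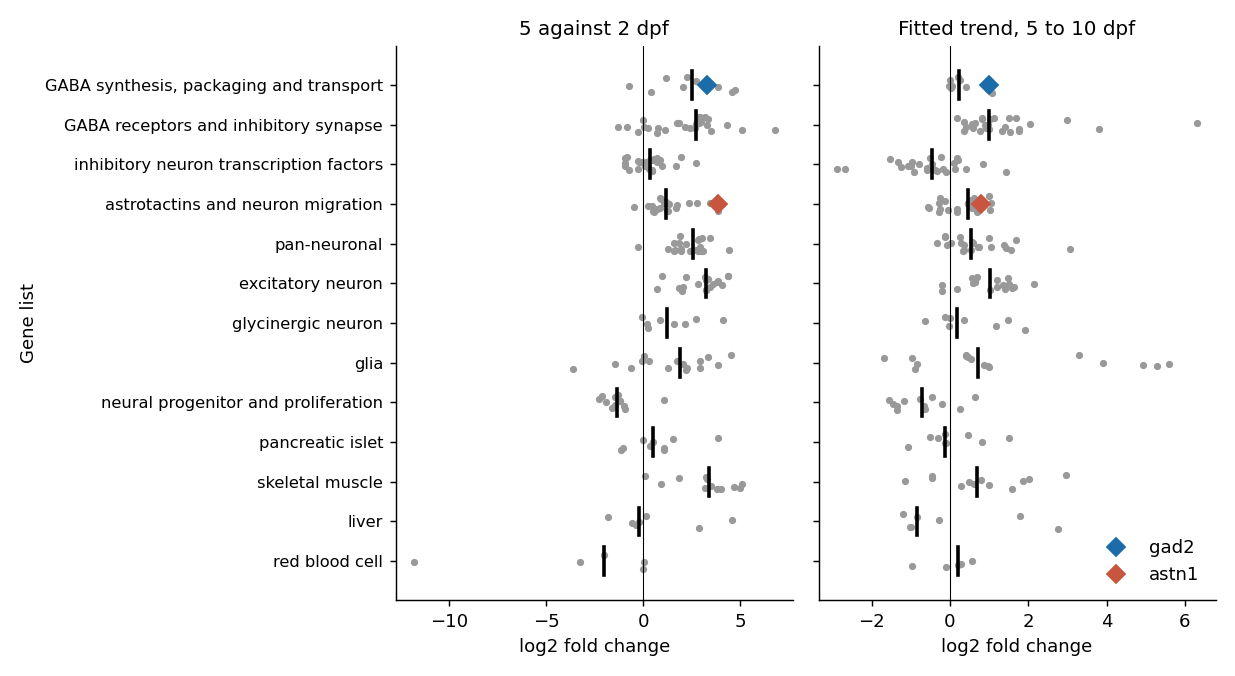
Log2 fold change between 5 and 2 dpf and fitted log2 change from 5 to 10 dpf for the tested members of 13 gene lists; each grey point is 1 gene, black bars are list medians without gad2 and astn1, and diamonds are gad2 (blue) and astn1 (red). gad2 (3.27 and 1.01) and astn1 (3.85 and 0.80) lay above the medians of their own lists in both comparisons.

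Other cell types of the whole fish moved as well. For comparison, 21.3% of all genes were upregulated and 11.9% downregulated between 5 and 2 dpf. Along the later days 14.6% rose and 9.39% fell. In a short list, a number near these shares is not a result about its cell type. Among 16 glial genes, 9 were upregulated and 2 downregulated between 5 and 2 dpf (median 1.90), with fabp7a, of the radial glia, at 2.93 and the glutamate transporter gene slc1a2b of astrocytes at 3.84. glula, a glutamine synthetase gene, fell by 1.47 and plp1a by 3.6, and aqp4 rested on 1 count at 2 dpf. Along the later days the myelin genes mbpa (5.60), plp1b (5.29), mpz (4.93) and mbpb (3.30) and the transporter gene slc1a2a rose and glulb fell, with a median of 0.71, and the numbers without replicate 2 of 10 dpf were also 5 and 1 (median 0.69). Of 12 genes of neural progenitors and dividing cells, 9 were downregulated and sox2 upregulated (median −1.37), with notch1a at −2.28, sox3 at −2.14 and mki67 at −1.43, while pcna had −0.94, short of the threshold. Along the later days 5 of them fell (sox3, nes, pcna, mcm5 and neurog1) and none rose, with a median of −0.72, and the numbers were again 5 and 0 without replicate 2 of 10 dpf (median −0.71). Skeletal muscle genes showed 10 of 12 upregulated (median 3.40), with tnnt3b at 5.10, pvalb1 at 4.97 and acta1b at 3.21, and 5 rose (mylpfa, acta1b, ckma, pvalb1 and actn3b) and myog fell along the later days (median 0.70). Without replicate 2 of 10 dpf 5 muscle genes rose and none fell (median 0.87), so that the call of myog rested on that library. Thus changes of the size seen for gad2 and astn1 also occurred outside the nervous system, and the part of cell type proportions in them was not tested.

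Islet genes were examined because glutamate decarboxylase is also made there. The islet, liver and red blood cell lists are short. Their numbers stand beside 21.3% of all genes upregulated and 11.9% downregulated between 5 and 2 dpf. Along the later days 14.6% of all genes rose and 9.39% fell. A number near these shares is not a result about the cell type. Of 9 tested, insm1a, neurod1, gcga and sst1.1 were upregulated and nkx6.1 downregulated between 5 and 2 dpf (median 0.50), the latter not without TMM. None rose and insm1b fell along the later days (median −0.12, and −0.22 without replicate 2 of 10 dpf), and with DESeq2, RLE, no TMM or at least 10 counts required in each library none fell. neurod1 (1.08) and pax6a (0.01), the most abundant, are also neural genes. Of the hormone genes, gcga had a change of 1.51, and sst1.1 had 2 counts at 2 dpf with a pooled rate 16.5 times higher at 5 dpf (exact counting interval 3.94 to 146), while the insulin gene was not matched. The sum of the list was 68.4 and 69.8 CPM at 2 dpf and 72.0 to 123 CPM later, and the part of islet cells in the values of gad2 was not tested. Of 7 liver genes, fabp10a (4.60) and fabp10b were upregulated and cp downregulated (median −0.21), with apoa1a at −0.36 and apoa2 at 0.13. fabp10b rested on 1 count at 2 dpf and 5 at 5 dpf, and 1 gene instead of 2 was upregulated with DESeq2, no filter, the replicate block, at least 10 counts required or only the libraries of the comparison. From 5 to 10 dpf 2 liver genes rose and 3 fell (median −0.83), but 1 fell under every alternative except the replicate block, also without replicate 2 of 10 dpf (median −0.59). Of 5 red blood cell genes, 3 were downregulated (median −2.0), slc4a1a, gata1b at −3.25 and the globin gene hbae3, which went from a mean of 2129 CPM to between 0.336 and 6.98 CPM, while alas2 had 0.07. None was a DEG of the later trend with or without replicate 2 of 10 dpf (median 0.21 and 0.02).

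The 2 pools of 10 dpf differed more in gad2 and astn1 than in most genes. Only 3.32% of the genes tested had a larger ratio of replicate 2 to replicate 1 than gad2, and 4.33% a larger one than astn1. The sums of the neuronal lists were also higher in replicate 2, with ratios of 1.72 for pan-neuronal genes and for GABA receptors, 1.71 for excitatory genes, 1.57 for the transcription factors, 1.47 for glycinergic genes, 1.45 for migration genes and 1.29 for GABA synthesis and transport. Glial genes had 1.03, islet genes 1.29 and progenitor genes 0.925. The sums of muscle, liver and red blood cell genes were lower in replicate 2, with ratios of 0.842, 0.751 and 0.535. Sums weigh abundant genes most, and single members differed. Higher in replicate 2 were 5 of 12 tested muscle genes, 3 of 7 liver genes and 2 of 5 red blood cell genes. Of 12 progenitor genes, 8 were higher there, with a median ratio of 1.18, although their sum was lower. Both pools were sampled from fish of the same stage, and the part of these shifts in the 10 dpf values of gad2 and astn1 was not tested.

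**Figure D5:**
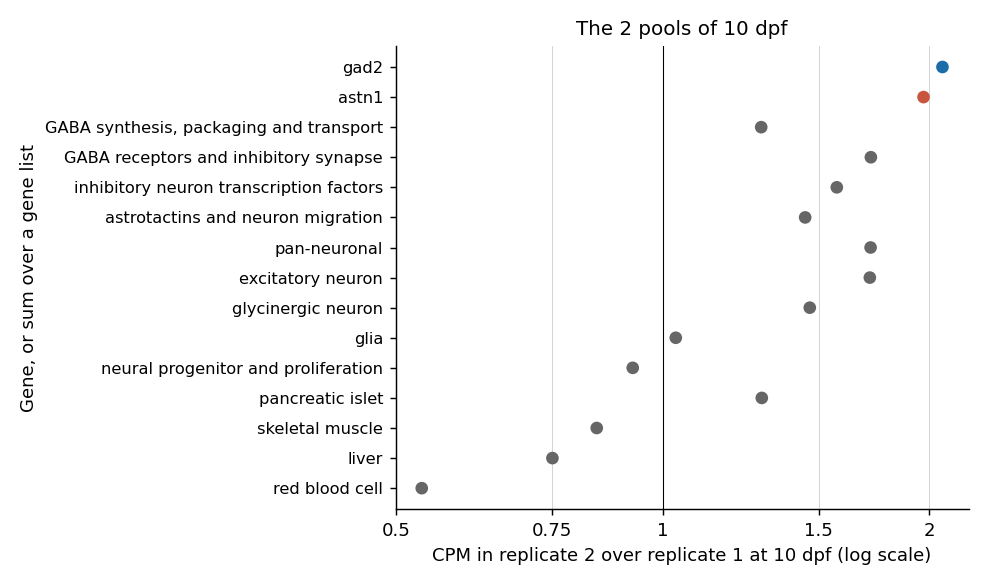
CPM in replicate 2 over replicate 1 at 10 dpf on a log axis, for gad2, astn1 and the summed CPM of 13 gene lists without these genes; the vertical line at 1 marks equal levels. gad2 (2.07) and astn1 (1.97) lay highest, neuronal lists between 1.29 and 1.72, and muscle, liver and red blood cell lists below 1.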

How the data were processed

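The authors depleted ribosomal RNA, trimmed reads with Trimmomatic 0.36, mapped them with STAR 2.7.0 and counted reads per gene with HTSeq, per the labels and the study's methods. The deposited values are their raw counts per gene and library, with no normalization or filter. The genome build, annotation and strand setting of the counting are not given in the sources used here. Of 23235 lines, 7 carried only 3 different identifiers and were added up per identifier. Of 23231 genes, 21834 matched a symbol of the RefSeq annotation of Coco_2.0.

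All 14 libraries were fitted with edgeR 4.0.16 in R 4.3.3 (TMM, low-count filter by stage, a mean per stage, quasi-likelihood test), which tested 20329 genes. Standard errors are approximate, derived from the fold change and the F statistic. Ratios used log2 counts plus 0.5. The correlation of gad2 with astn1 over the later libraries used log2 CPM with nothing added. The search for the genes most like each member used log2 CPM plus 0.5. Permutation tests were exact or used 100000 resamples. Alternatives were DESeq2 1.42.0, RLE, no TMM, no filter, at least 10 counts required in each library, libraries of the comparison only, a replicate block, odd or even days, and each library left out. The fit was tested on simulated counts. Python 3.11.15 with scipy 1.17.1, pandas 2.3.3 and matplotlib 3.10.9 made tables and plots.

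Stages came from the labels. Replicate numbers come from the labels too, but pools were of different fish, and of 21 stage pairs 2 had deviations that correlated above 0.1 (range −0.585 to 0.268), so libraries were not paired. The edgeR p-values measure the spread between pools of a stage. Because the pools of a stage came from fish collected together, these p-values do not cover spread between collections or spawns. Stage and collection cannot be told apart. The permutation tests moved single libraries across stages, so their p-values do not measure that spread. The members, lists and tests were chosen with earlier results of these data known. Genes were named by rule: the decarboxylase and astrotactin genes, every tested gene of GABA synthesis and transport, the 2 most abundant and the 2 most changed (5 against 2 dpf) of each other list, and the 5 genes most like each member. Some genes that the rule names are counted in their lists and not reported here by name. Other genes named were chosen after their values were seen. Among them were reln, vldlr, dab1a, cdh2, elavl3, genes with few counts and genes named because they were DEGs. The lists covered GABA synthesis and transport, GABA receptors, inhibitory transcription factors, neuron migration, pan-neuronal, excitatory, glycinergic, glial, progenitor, islet, muscle, liver and red blood cell genes. No sequence or exon length was used here.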

Additional observations from a re-analysis of the deposited data

How the results depend on the processing

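Both genes stayed upregulated DEGs between 5 and 2 dpf under every alternative run, with log2 fold changes of 3.26 to 3.48 for gad2 and 3.84 to 4.06 for astn1, and of 2.93 to 3.71 and 3.52 to 4.26 with a library left out. A stage left with 1 library was assumed to vary like the others. The replicate block gave 3.26 and 3.84 between 5 and 2 dpf and 1.0 and 0.79 for the later trend, and it changed no call of either gene. The change of gad2 between 7 and 6 dpf, near 0, turned positive with DESeq2 (0.0097), RLE (0.011), no filter (0.017) and a minimum of 10 counts (0.017), and ranged from −0.043 to 0.025 with a library left out. That of astn1 between 8 and 7 dpf ranged from −0.039 to 0.15 with a library left out. None of these was a DEG. Between 10 and 9 dpf, leaving out a library gave 0.20 to 1.21 for gad2 and 0.15 to 1.09 for astn1, and both genes were DEGs only without replicate 1 of 10 dpf. The later trend ranged from 0.62 to 1.31 for gad2, under the fold threshold without replicate 2 of 10 dpf or replicate 1 of 8 dpf, and from 0.44 to 1.08 for astn1, a DEG only without replicate 1 of 10 dpf (the even-day libraries gave 1.04 at an adjusted p of 0.115). For gad2 it was 0.70 in the odd-day and 1.41 in the even-day libraries, neither a DEG. The log2 ratio of gad2 to astn1 differed by −0.56 to −0.50 with a library left out. With a minimum of 10 counts, 15775 genes were tested. The number of DEGs was then 4300 between 5 and 2 dpf and 2756 for the later trend. In the main fit these numbers were 6757 and 4880, out of 20329 genes tested. With only the libraries of a comparison in the edgeR fit, the number of DEGs was 1160 instead of 531 between 7 and 6 dpf. It was 834 instead of 455 between 8 and 7 dpf. Between 9 and 8 dpf it was 47 instead of 150, and between 10 and 9 dpf 0 instead of 262. There 636 genes passed the fold threshold at an unadjusted p under 0.05, and DESeq2 called 338 on all libraries. The cause of these shifts was not tested. Without TMM 75.3% of DEGs between 5 and 2 dpf were upregulated, against 64.2%. The list numbers without replicate 2 of 10 dpf and under other settings were added after seeing the data. With 2 libraries per stage and at most 33 counts of either gene in a 2 dpf library, counting error is largest at 2 dpf, while the replicates lay farthest apart at 10 dpf.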
